A study of Sus scrofa with 32 samples.

Results

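The genes described here were ALB, TTR, TF, HP, APOC3, FGB and ASS1, 7 of the 25322 gene IDs measured, in RNA from pig muscle. They were chosen by name, because their levels were already known to differ widely between the libraries, so the levels and ratios below are given as a description without a test. RNA was sequenced from longissimus dorsi (LD) and from semimembranosus (S), a muscle of the ham, of 16 unrelated gilts, 8 Pulawska (PUL, an indigenous Polish breed) and 8 Polish Landrace (PL). The labels give the age of all pigs as 180 days, although the study raised them to a set body weight, and all were kept under the same conditions and starved before slaughter, and each gave 1 library of each muscle, 32 in all (8 per breed and muscle). Each library was of 1 animal, and the muscle was sampled whole, within minutes of slaughter, with the blood, fat and connective tissue it held. The authors' values are expected counts, which RSEM estimated per gene, and levels are given here as CPM, the counts scaled to the size of the library with TMM factors. Totals ranged from 8821273 to 24761853 counts per library, so that 3 counts, taken as the limit that a count of 0 allows, stood for 0.0969 to 0.353 CPM. The muscle marker ACTA1 lay between 29624 and 152606 CPM in the 32 libraries.

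Plasma proteins are made mostly in the liver, where hepatocytes transcribe their genes at a high rate and secrete the products into the blood. ALB encodes serum albumin, the main protein of plasma. TTR encodes transthyretin, which carries thyroxine and the retinol-binding protein, and TF encodes transferrin, which carries iron. HP encodes haptoglobin, which binds free haemoglobin and rises in the acute phase response. APOC3 encodes an apolipoprotein of triglyceride-rich particles, and FGB encodes the beta chain of fibrinogen, the precursor of the clot. ASS1 is not a plasma protein gene: it encodes argininosuccinate synthase, an enzyme inside the cell that serves the urea cycle in the liver and the making of arginine in the kidney and other tissues.

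ALB, TTR, TF, APOC3 and FGB were high in both muscles of PUL pigs 1, 2, 3, 4 and 5, and at or near 0 in the other 22 libraries, those of PUL pigs 13, 16 and 17 and of the 8 PL pigs. In CPM, all 10 libraries of PUL pigs 1 to 5 lay above all 22 others for these 5 genes, and HP and ASS1 overlapped. In counts the gap was small or absent for some. TTR had 6 counts in S of PUL pig 3 and 7 in S of PL pig 9, and FGB had 14 in S of PUL pig 3 and 13 in LD of PL pig 14. This split into 10 and 22 libraries was drawn from the values themselves. Among 12208 genes with at least 10 counts in at least 5 libraries, 30 (0.246%) showed the same separation. The labels give no batch, sampling day or library pool for a pig, and the study's table of indexes and pools was not used here, so the pig number was not set against one. In bulk RNA, fewer cells of a type and less RNA per cell cannot be told apart.

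**Figure D1:**
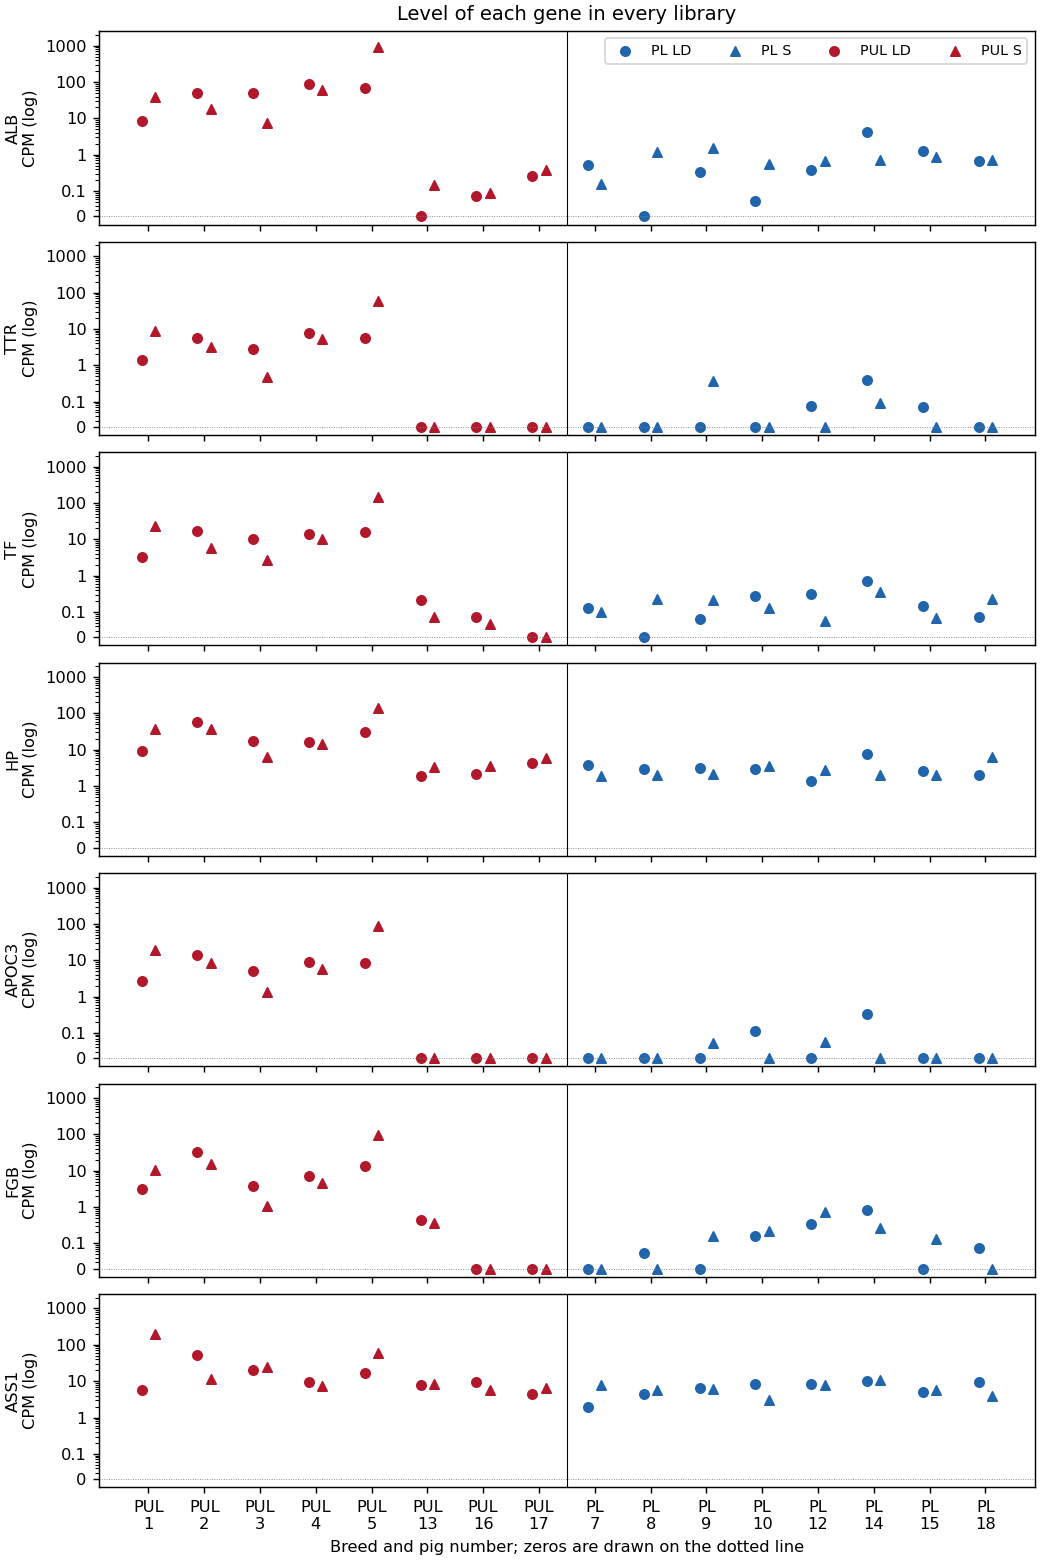
Level of each of the 7 genes (CPM, log axis, zeros on the dotted line) in the LD (circles) and S (triangles) library of every pig, 1 panel per gene, with PUL pigs in red on the left and PL pigs in blue on the right. PUL pigs 1 to 5 are high for ALB, TTR, TF, APOC3 and FGB, while HP and ASS1 keep a level in all 32 libraries.

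For ALB, the level in LD of PUL was 8.6 CPM in pig 1, 50.1 in pig 2, nearly the same in pig 3, 88.8 in pig 4 and 70.5 in pig 5. In S of the same pigs it was 39.8, 18.2, 7.66, 59.9 and 918 CPM. ALB thus spanned 120-fold among these 10 libraries, and the S library of pig 5, with 16649 counts, stood above the rest. In the 6 libraries of PUL pigs 13, 16 and 17 ALB had 0 to 5 counts, at most 0.392 CPM. In the 16 PL libraries it had 0 to 66 counts (median 0.673 CPM), the highest being the LD library of pig 14 at 4.27 CPM. No ALB count was found in 2 libraries, LD of PUL pig 13 and LD of PL pig 8.

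In PUL pigs 1 to 5 TTR spanned 128-fold, from 0.469 to 60.1 CPM, and had no count in 17 of the 22 others. All 6 libraries of PUL pigs 13, 16 and 17 were at 0 for TTR, and the highest PL value was 0.388 CPM, again in LD of pig 14. TF lay between 2.66 and 146 CPM in PUL pigs 1 to 5 and between 0 and 0.711 CPM in the others. The TF counts are less certain, because the RefSeq table lists 2 neighbouring entries under that symbol and RSEM divides reads shared by near-identical copies. Of the 22 other libraries, 3 had no TF count, and the median was 2.0 counts.

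APOC3 ranged from 1.33 to 88.6 CPM in PUL pigs 1 to 5, and 18 of the 22 other libraries had no count of it. FGB ranged from 1.09 to 94.9 CPM in the former and from 0 to 0.841 CPM in the latter, with 10 of the 22 at 0. The lowest value of PUL pigs 1 to 5 was in S of pig 3 for ALB, TTR, TF, HP, APOC3 and FGB. The highest was in S of pig 5 for the same 6 genes.

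HP and ASS1 were measured in every library. HP lay between 1.39 and 7.57 CPM (17 to 117 counts, median 2.88 CPM) in the 22 libraries with low ALB, against 6.41 to 145 CPM in PUL pigs 1 to 5. In the 2 libraries without an ALB count HP stood at 1.9 and 2.93 CPM, from 26 and 55 counts. ASS1 lay between 1.96 and 10.9 CPM (30 to 157 counts, median 6.53 CPM) in the 22 libraries, and stood at 7.6 and 4.52 CPM where ALB had no count. A level of both genes was thus present without ALB, and only 1 HP value of the 22, in LD of PL pig 14, was above the lowest of PUL pigs 1 to 5. ASS1 overlapped more widely: in LD of pig 1 and in both muscles of pig 4, at 5.62, 9.5 and 7.35 CPM, it was within the range of the 22.

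**Figure D2:**
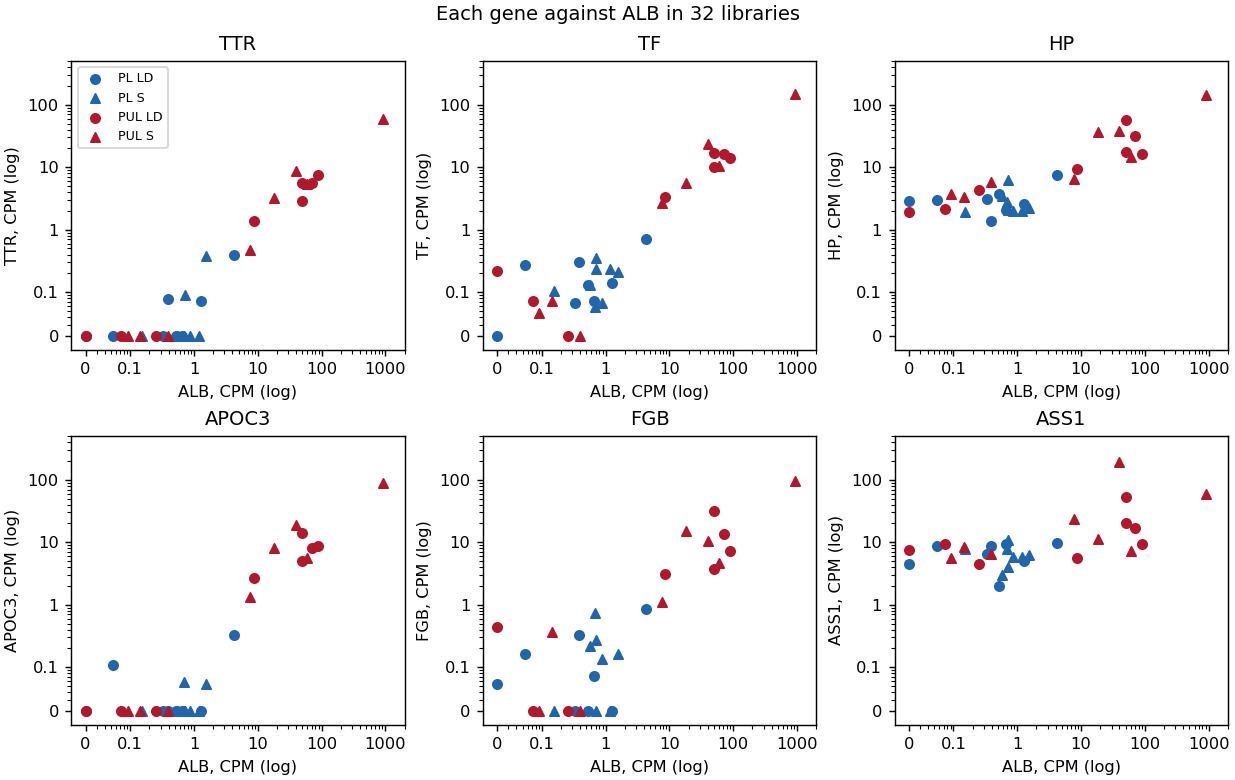
Level of TTR, TF, HP, APOC3, FGB and ASS1 against that of ALB (both in CPM, log axes, zeros at the edge) in 32 libraries. TTR, TF, APOC3 and FGB fall toward 0 with ALB, HP flattens between 1.39 and 7.57 CPM, and ASS1 is spread between 5.62 and 193 CPM among the libraries high in ALB.

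The likeness of each gene to ALB was taken over log2(CPM + 0.5). Since the libraries fell into a high and a low set, the correlation is given within the 10 libraries of PUL pigs 1 to 5, which come from 5 animals and share the scaling by library size. Pearson's r with ALB was 0.95 for TTR, 0.95 for TF, 0.87 for APOC3, 0.78 for FGB and 0.77 for HP, and 0.34 for ASS1. Over the 15 pairs among the 6 genes other than ASS1, r ran from 0.77 to 0.98, and over the 6 pairs with ASS1 from 0.34 to 0.59. The S library of pig 5 is an end point of each of these relations.

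The ratio of a gene's counts to ALB counts does not depend on the total of the library, and was computed where ALB had at least 50 counts, in the 10 libraries of PUL pigs 1 to 5 and in LD of PL pig 14. Transcript lengths were not used, so a ratio can be compared between libraries for 1 gene but not between genes. Brackets give exact 95% (Clopper-Pearson) intervals, which cover counting error only, since reads without molecular identifiers are not independent molecules.

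TTR and TF kept the narrowest ratios. TTR per ALB ranged 3.75-fold, from 0.0572 (0.0405 to 0.0787) in LD of pig 3 to 0.214 (0.178 to 0.257) in S of pig 1, with a median of 0.0866. In LD of pigs 1 to 5 it was 0.158, 0.111, 0.0572, 0.0842 and 0.0786, and in S of the same pigs 0.214, 0.176, 0.0612, 0.0891 and 0.0655. Pig 1 was highest in both muscles and pig 3 lowest, although S of pig 3 rested on 6 TTR counts and its interval, 0.0219 to 0.138, held the ratios of pigs 4 and 5. TF per ALB ranged 3.76-fold, from 0.156 in LD of pig 4 to 0.587 in S of pig 1, around a median of 0.27.

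APOC3 per ALB ranged 5.06-fold, from 0.0937 in S of pig 4 to 0.474 in S of pig 1. In LD of pigs 1 to 5 it was 0.316, 0.277, 0.0987, 0.0987 and 0.116, and in S 0.474, 0.453, 0.173, 0.0937 and 0.0965. Pigs 1 and 2 thus carried more APOC3 per ALB than pigs 3, 4 and 5, in LD as in S.

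FGB per ALB was more variable, from 0.0744 in LD of pig 3 to 0.844 in S of pig 2, an 11.3-fold range. In LD of pigs 1 to 5 it was 0.365, 0.637, 0.0744, 0.0831 and 0.195, and in S 0.259, 0.844, 0.143, 0.0764 and 0.103. Pig 2 was highest and pig 1 next in both muscles. In pig 2 FGB per ALB was 1.32-fold apart between the muscles, and in pig 4 1.09-fold.

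HP per ALB ranged 12.7-fold, from 0.158 in S of pig 5 to 2.01 in S of pig 2. In LD of pigs 1 to 5 it was 1.08, 1.14, 0.356, 0.183 and 0.447, and in S 0.952, 2.01, 0.837, 0.241 and 0.158. Because HP had a level of its own where ALB was near 0, the median of the 16 PL libraries, 2.69 CPM, was also subtracted. The ratio of what remained ranged from 0.153 in LD of pig 4 to 1.86 in S of pig 2. In S of pig 3, where ALB was lowest, the subtraction moved HP per ALB from 0.837 to 0.486, and in LD of PL pig 14 from 1.77 to 1.14.

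The ratios were set beside each other within pigs. The geometric mean of a pig's LD and S ratios ranged 9.2-fold over the 5 pigs for FGB, 7.21-fold for HP, 4.02-fold for APOC3, 3.11-fold for TTR and 2.88-fold for TF. The muscles of 1 pig were at most 1.92-fold apart for FGB, 2.83-fold for HP, 1.76-fold for APOC3, 1.59-fold for TTR and 1.71-fold for TF. For each of these 5 genes the pigs were further apart than the muscles of a pig, although ALB itself differed up to 13-fold between the muscles of a pig. The 5 ratios of a library share its ALB count as denominator, so the 5 genes are not independent here. The intervals of LD and S overlapped in 4 of 5 pigs for TTR, in 3 of 5 for TF, APOC3 and FGB, and in 2 of 5 for HP. Both libraries of a pig come from 1 animal, and the steps they may share after slaughter were not used here.

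**Figure D3:**
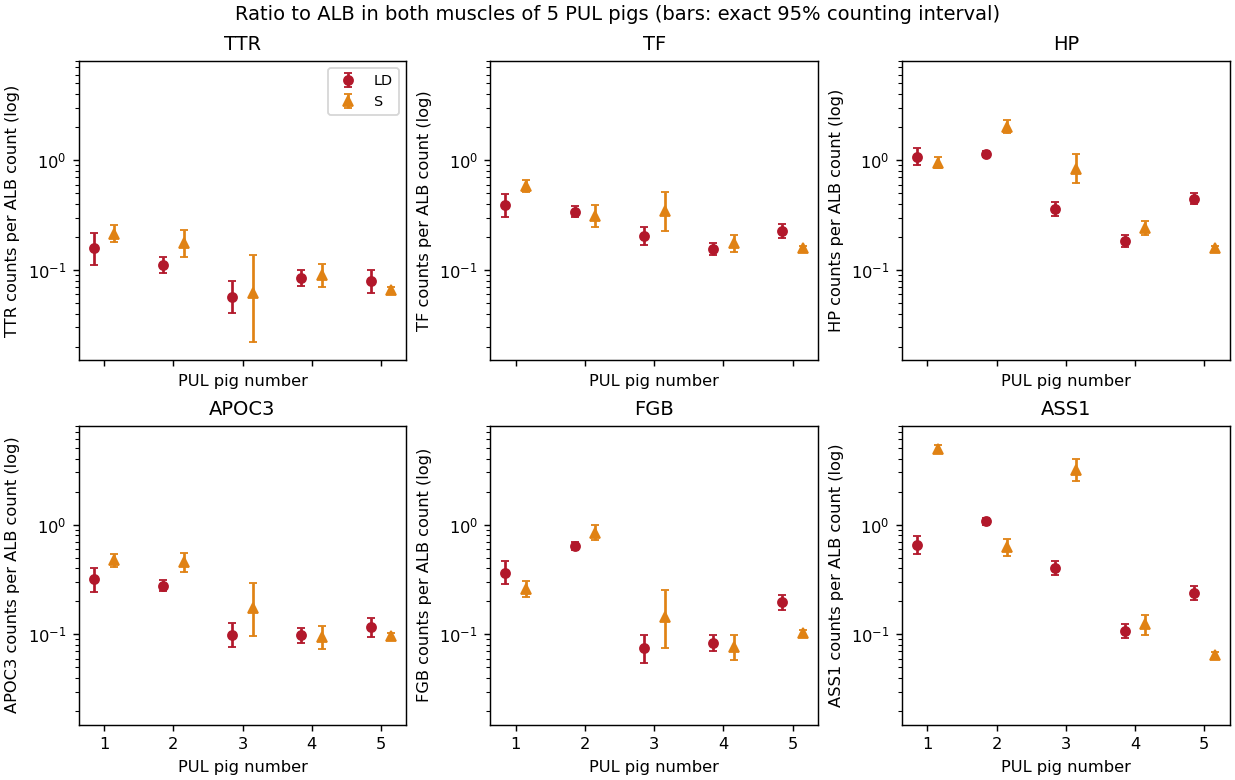
Counts of each gene per ALB count (log axis) in LD (circles) and S (triangles) of PUL pigs 1 to 5, with exact 95% counting intervals as bars. FGB is highest in pig 2 in both muscles (0.637 and 0.844), and ASS1 is far apart between the muscles of pigs 1 and 3.

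ASS1 per ALB ranged 74.7-fold, from 0.0647 in S of pig 5 to 4.84 in S of pig 1. Within pig 1 it was 0.654 in LD and 4.84 in S, and within pig 3 0.403 in LD and 3.13 in S, 7.39-fold and 7.76-fold apart. The intervals of LD and S overlapped in 1 of 5 pigs. After subtraction of the PL median of 6.39 CPM the ratio ran from -0.0891 in LD of pig 1 to 4.68 in S of pig 1. ASS1 was highest in S of pig 1 (193 CPM), followed by S of pig 5 (59.4 CPM) and LD of pig 2 (53.9 CPM), while ALB in these libraries was 39.8, 918 and 50.1 CPM.

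The genes whose pattern over the 32 libraries was most like that of ASS1 were not those most like ALB. Of the 15 nearest to each by Pearson's r, none was shared, and the 15 nearest to ALB were all highest in S of pig 5 whereas the 15 nearest to ASS1 were all highest in S of pig 1. ALB and ASS1 were themselves highest in those libraries. Genes ranked by likeness to a gene tend to peak where it does, so these peaks are no separate result. The list for ASS1 was drawn up after its values were seen. It held UMOD, the gene of uromodulin, which is made by the thick ascending limb of the kidney, and CUBN, the cubilin receptor of the proximal tubule. CDH16, the kidney cadherin, SLC5A12, a lactate transporter of the proximal tubule, AGXT2, DAO, AOC1, UPP2, SDSL and HNF4A were the other named genes. HNF4A, a transcription factor of hepatocytes and also of the proximal tubule, was highest in S of pig 1 at 14.4 CPM.

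UMOD had 218 counts in S of pig 1, 111 in LD of pig 2, 49 in S of pig 5, 18 in LD of pig 5 and 15 in S of pig 3. It had between 2 and 9 counts in the other 5 libraries of PUL pigs 1 to 5, and no count in 21 of the 22 remaining libraries. Within the 10 libraries ASS1 had r = 0.96 with UMOD, and ALB had r = 0.23 with UMOD. UMOD was picked for its likeness to ASS1 over libraries that include these 10. A high r with ASS1 follows from that choice and is a description only. The part of ASS1 above the PL median came to 14.8 per UMOD (in CPM) in S of pig 1, 11.6 in LD of pig 2, 19.6 in S of pig 5, 8.33 in LD of pig 5 and 15.0 in S of pig 3. With fewer UMOD counts, it lay in S of pig 2 between the values for LD of pigs 5 and 2, and came to 32.1 in LD of pig 3 and, in LD of pig 1 with 7 UMOD counts, to -3.39, since ASS1 was below the PL median. These 8 libraries had at least 5 UMOD counts. SLC12A1, the salt cotransporter of the thick ascending limb, and AQP2, the water channel of the collecting duct, were highest in S of pig 1 as well, at 5.71 and 3.64 CPM. UMOD, SLC12A1 and AQP2 summed to 0.277 to 21.9 CPM in PUL pigs 1 to 5. In the 22 other libraries the sum was at most 0.259 CPM, so the sums did not overlap in CPM. Both ends of that gap rested on few counts. These were 2 of UMOD and 2 of AQP2 in S of PUL pig 4, and 3 of UMOD and 1 of SLC12A1 in LD of PL pig 14. The part of these kidney genes in the ASS1 values was not tested.

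**Figure D4:**
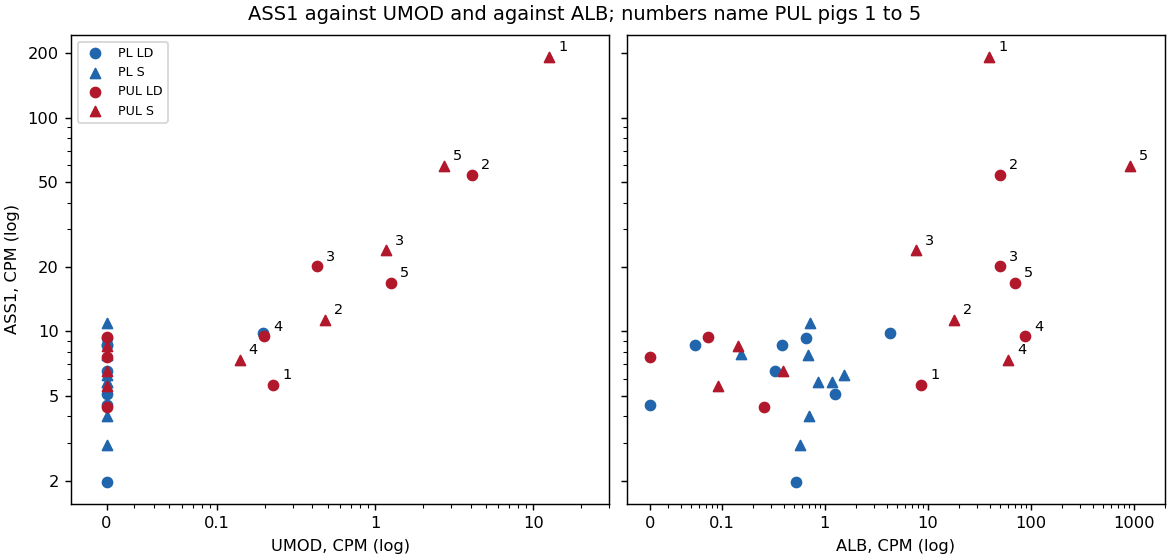
Level of ASS1 against UMOD (left) and against ALB (right), both in CPM on log axes, in 32 libraries, with zeros at the edge and PUL pigs 1 to 5 numbered. S of pig 1 is highest for ASS1 (193 CPM) and for UMOD, whereas S of pig 5 (59.4 CPM of ASS1) is highest for ALB.

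The genes nearest to ALB were led by other products of the hepatocyte. Of the 15, 7 had a symbol: AHSG, the gene of fetuin-A (r = 0.98 over the 32 libraries, as a rank of likeness only), AMBP, the precursor of alpha-1-microglobulin, HPX, the gene of hemopexin, which binds haem, PLG, the gene of plasminogen, CYP2E1, a cytochrome P450 of the liver, PROC, the gene of protein C, and ITIH1. AHSG lay between 1.61 and 63.4 CPM in PUL pigs 1 to 5 and at most at 0.905 CPM in the others. For HPX, the same ranges were 0.86 to 74.3 CPM and 0 to 0.398 CPM. All 7 were in lists of liver genes drawn up for this description.

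The partners of the 7 genes in their own pathways did not all follow them. In the counts that follow, a gene had enough counts if it had at least 10 in at least 5 libraries. It was separated if all 10 libraries of PUL pigs 1 to 5 lay above all 22 others. Over all genes with enough counts, 30 of 12208 (0.246%) were separated. A gene could have enough counts through the 10 libraries alone, and the split was drawn from the values, so these counts are a description only. Of the other plasma carriers, 6 had enough counts, and 4 of them, HPX, GC, AMBP and AHSG, had all 10 libraries above all 22. CP, the gene of ceruloplasmin, did not, with 9.84 to 22.9 CPM in the 10 and 5.63 to 119 CPM in the 22. Among 5 other apolipoproteins the separation was found for APOA2, at 0.0782 to 19.5 CPM against at most 0.0576 CPM. The 0.0782 and 0.0576 CPM each stood for 1 count, in S of PUL pig 3 and S of PL pig 12. APOA1, which lies next to APOC3 in the RefSeq table, was at 4.78 to 21.6 CPM in the 10 and at 7.91 to 64.8 CPM in the 22. APOE was at 8.56 to 103 CPM and at 7.27 to 108 CPM.

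Among 11 other coagulation genes, 2 were separated, PLG and PROC. F2, the prothrombin gene, reached 14.9 CPM in S of pig 5, and SERPINC1, the antithrombin gene, 19.1 CPM, but both had 0.118 CPM or more in each of the 22 other libraries. FGG, the gamma chain of fibrinogen, was at 0.386 to 17.5 CPM in PUL pigs 1 to 5 and at most at 0.388 CPM in the others, a near separation. Of 14 acute phase, inhibitor and complement genes with enough counts, 1 was separated, VTN, the vitronectin gene. C8A, of the complement, had fewer counts and was separated narrowly, at 0.0782 to 5.51 CPM against at most 0.0708 CPM. The most abundant of them, AGT, ITIH4 and CFI, were at 3.97 to 30.9, 2.31 to 25.4 and 1.39 to 12.8 CPM in the 10 libraries and overlapped with the 22.

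Of 10 hepatocyte enzymes with enough counts, 2 were separated: CYP2E1, at 0.452 to 32.1 CPM, and HPD, of tyrosine breakdown, at 0.194 to 6.45 CPM with no count in the 22 others. TAT, also of tyrosine breakdown, had fewer counts, at 0.0323 to 4.03 CPM, and no count in the 22. PCK1, of gluconeogenesis, FAH and UROC1 were the most abundant enzymes and overlapped. None of 2 hepatocyte transporters, receptors and transcription factors with enough counts was separated. SLC38A4, an amino acid transporter, was highest in LD of pig 2 at 40.7 CPM. Among the urea cycle genes other than ASS1, none of 5 with enough counts was separated. CPS1, which catalyses the first step of the cycle in the liver, had fewer counts and was separated, at 0.194 to 9.48 CPM against at most 0.157 CPM, highest in S of pig 5. ASL, which acts on the product of ASS1, was at 12.4 to 36.8 CPM in the 10 libraries and 19.9 to 40.7 CPM in the 22.

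Among genes with enough counts that handle iron, triglyceride-rich particles, retinol and thyroxine, or haem, only HPX was separated. None of 5 genes of iron handling, such as FTL and TFRC, of 5 genes of triglyceride-rich particles, such as VLDLR and LMF1, or of 3 genes of retinol and thyroxine carriage was separated. RBP4, which travels with transthyretin, was at most 18.6 CPM, in S of pig 5, and STRA6, its receptor, was highest in S of pig 1 at 12.9 CPM. In the 22 libraries they reached 2.68 and 0.388 CPM, but the lowest value of each in the 10 was 0. HBB, the beta globin gene and a marker of blood, ranged from 12.5 to 721 CPM in the 10 libraries and from 24.6 to 1060 CPM in the 22.

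**Figure D5:**
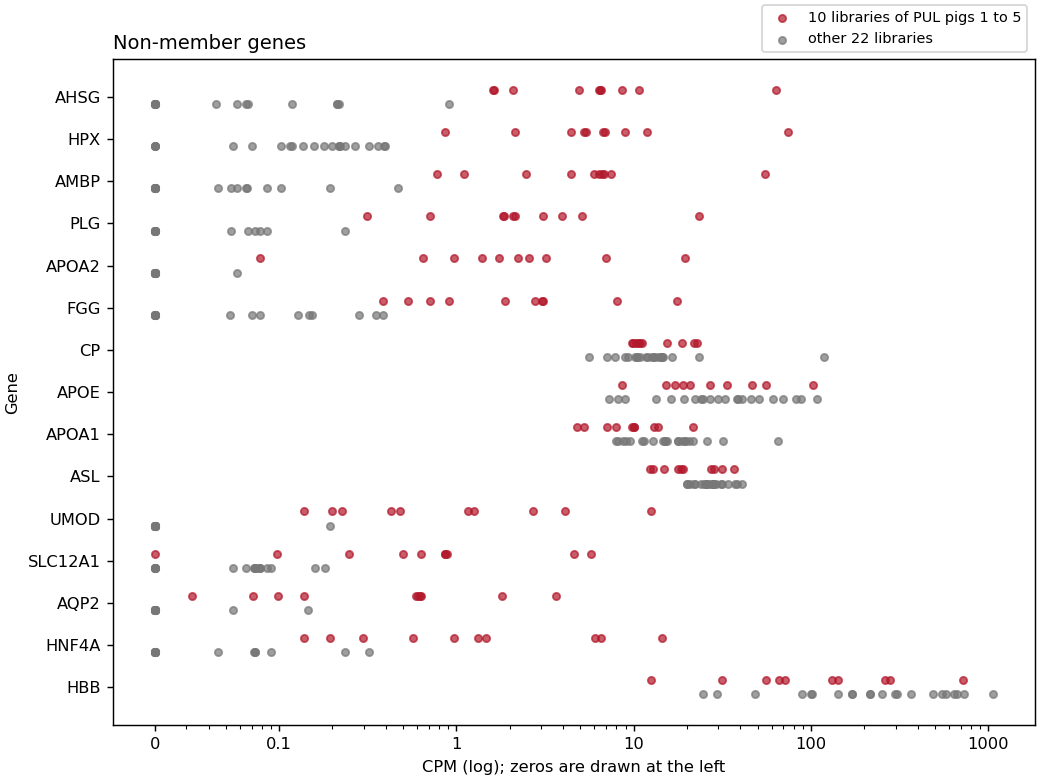
Level of 15 genes outside the 7 (CPM, log axis, zeros at the left) in each of the 10 libraries of PUL pigs 1 to 5 (red) and the other 22 (grey). AHSG, HPX, AMBP, PLG and APOA2 do not overlap in CPM between the sets (for APOA2 the gap rests on single counts), and CP, APOE, APOA1, ASL and HBB do.

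Markers of other cell types were summed per library. None of the marker lists for skeletal muscle, red blood cells, adipocytes, endothelium, macrophages, bile duct, B cells, exocrine pancreas, kidney tubule and skin held a single gene with all 10 libraries above all 22. The sum of the kidney genes was separated in CPM, though on few counts at the gap, as given above. Lung and intestine had no gene with enough counts. The lung sum was at most 0.0782 CPM, with SFTPB and SFTPD at 0 in all libraries, and the intestine sum at most 0.808 CPM, with SI and CDX2 at 0. Exocrine pancreas genes summed to 1.17 to 7.82 CPM in PUL pigs 1 to 5 and 1.93 to 5.21 CPM in PL. In PUL pigs 13, 16 and 17 they summed to 1.08 to 8.31 CPM. Bile duct genes summed to 0.491 to 5.62 CPM in PUL pigs 1 to 5, 0.222 to 0.956 in the other PUL pigs and 0.0895 to 2.11 in PL. The highest bile duct sum was in S of PUL pig 1, where EPCAM stood at 4.39 CPM. B cell genes summed to at most 1.49 CPM and skin genes to at most 2.75 CPM in any library. Adipocyte genes summed to 11 to 83.8 CPM in PUL pigs 1 to 5 and 10.9 to 68.5 CPM in PL, endothelial genes to 40.9 to 151 and 62.5 to 204 CPM, and macrophage genes to 1.73 to 9.47 and 2.58 to 31.9 CPM. In PUL pigs 13, 16 and 17 these 3 sums were 7.63 to 52.9, 80.2 to 127 and 4.08 to 11.2 CPM.

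The study compared the breeds within each muscle. By group, HP was 17.5 ± 18.8 CPM in LD of PUL and 3.29 ± 1.87 in LD of PL, and 31.7 ± 48.0 in S of PUL and 2.85 ± 1.49 in S of PL (SD, n = 8 each). In LD of PUL its lowest, median and highest values were 1.9, 12.8 and 57.1 CPM, against 1.39, 2.94 and 7.57 in PL. In S they were 3.33, 10.4 and 145 CPM against 1.95, 2.12 and 6.28. The breeds overlapped in both muscles, through PUL pigs 13, 16 and 17, and the SD of PUL exceeded its mean.

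ASS1 was 15.9 ± 16.3 CPM in LD of PUL and 6.8 ± 2.76 in PL, and 39.4 ± 64.5 in S of PUL and 6.41 ± 2.48 in PL (SD, n = 8). ALB was 33.5 ± 35.7 CPM in LD of PUL and 0.936 ± 1.4 in PL, and 131 ± 319 in S of PUL and 0.803 ± 0.414 in PL. The median of ALB was 29.3 CPM in LD of PUL and 12.9 CPM in S of PUL. For ALB too the breeds overlapped in both muscles.

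TTR, TF, APOC3 and FGB did not pass the filter on low counts within a muscle, which asks for 8 libraries, and 3 of the 7 genes were tested. In edgeR's quasi-likelihood test with Benjamini-Hochberg adjustment, 0 of 3 were called in LD and 0 of 3 in S, where 0.0% of 10792 and 0.0% of 10687 genes were called (adjusted p at or under 0.05 and a fold change of at least 1.3). All 3 had an unadjusted p under 0.05 and a higher mean in PUL in both muscles. The log2 fold change of PUL over PL in LD was 5.16 for ALB (SE 1.24, adjusted p = 0.431), 2.41 for HP (SE 0.61, adjusted p = 0.481) and 1.24 for ASS1 (SE 0.46, adjusted p = 0.555). In S it was 7.37 for ALB (SE 1.57, adjusted p = 0.161), 3.49 for HP (SE 0.73, adjusted p = 0.155) and 2.64 for ASS1 (SE 0.70, adjusted p = 0.204).

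With DESeq2, 2 of 3 were called in LD, ALB and HP, where 0.176% of the genes were called, and 3 of 3 in S, where 0.964% were called. With edgeR's exact test, 1 of 3 was called in LD, HP, against 0.12% of the genes, and 3 of 3 in S, against 0.524%. The fit without PUL pigs 1 to 5 used the quasi-likelihood test only, which had called no member with all pigs either. It called none, which says nothing about the calls of DESeq2 and the exact test. The log2 values for HP were then -0.24 (LD) and 0.59 (S). Those for ASS1 were 0.08 (LD) and 0.10 (S), and ALB, which no longer passed the filter in LD, had -1.97 in S. These genes were chosen with breed differences in view, and nothing further was read from the counts of calls.

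The difference between the muscles could be tested for all 7 genes. None of the 7 was called (edgeR's quasi-likelihood test), where 16 of 11563 genes (0.138%) were called, and none of the 7 had an unadjusted p under 0.05. DESeq2 called none of the 7 either. The log2 fold change of S over LD ran from 0.35 for HP (SE 0.48) to 1.44 for TTR (SE 0.92), with an adjusted p of 0.984 for each. With the libraries of a pig paired, it ran from 0.08 for TF to 0.36 for TTR, with an adjusted p of at least 0.974. Without the libraries of PUL pig 5, the log2 fold change of ALB was -0.47, and those of TTR, TF, HP, APOC3 and FGB were also below 0.

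The interaction of breed and muscle asked if S and LD differed in their PUL to PL difference. None of the 7 genes was called, as for 0.0% of the 11563 genes, with an adjusted p of 1.0 for each and unadjusted p of 0.111 to 0.658 (edgeR's quasi-likelihood test). The estimates were wide: the interaction on the log2 scale was 2.19 for ALB (SE 1.86) and 1.39 for ASS1 (SE 0.85). With the libraries of a pig paired, the interaction was -0.1 for ALB (SE 1.12) and 0.45 for ASS1 (SE 0.77). Over the 7 genes the paired values ran from -0.12 for FGB (SE 0.94) to 1.79 for APOC3 (SE 2.06). DESeq2 called none of the 7 here, and none of the 7 had an unadjusted p under 0.05 with either tool.

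In LD of PL pig 14, the PL library with the most ALB, TTR, TF, HP, APOC3 and FGB were also the highest of LD of PL, while ASS1, at 9.83 CPM, was close to pig 18 at 9.3 CPM. TTR, TF, APOC3 and FGB had 6, 11, 5 and 13 counts there, giving 0.0909, 0.167, 0.0758 and 0.197 per ALB count. The interval for TTR, 0.0322 to 0.209, held every TTR ratio of PUL pigs 1 to 5 except that of S of pig 1. In S of the same pig ALB was at 0.716 CPM and HP at 2.06 CPM, within the range of the other PL libraries. UMOD had 3 counts in this LD library. Macrophage genes summed there to 31.9 CPM, the highest of all libraries, against a median of 4.47 CPM in LD of PL, and their part in these values was not tested.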

How the data were processed

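RNA of LD and S muscle of 16 gilts was depleted of ribosomal RNA, and libraries made with an unstranded kit were read as single reads. The authors trimmed the reads, used RSEM with Bowtie 2 on Sscrofa10.2 to estimate expression, and CASAVA 1.8.2 and FastQC stand in the submitters' processing notes. The deposited values used are RSEM's expected counts per gene, not normalized, in which reads of several possible origins were divided among genes. The expected counts per isoform, also deposited by the authors, were not used.

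The members and gene lists were chosen with earlier results of these data known. The breed and muscle in the labels gave the groups. The labels also mark PUL as high and PL as low in shear force, which is at odds with the study's account of the meat, and shear force was not used. Symbols came from a table of gene names (11805 of 25322 IDs), with HP by its ID, and 156 of 232 listed symbols were found, in 24 lists. Genes named outside the 7 were among the 3 with the highest mean CPM of a list or the 15 most correlated with ALB (at least 10 counts in at least 5 libraries). Names given for their separation, the kidney genes and the genes at 0 were added after their values were seen.

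Counts were rounded, and edgeR 4.0.16 in R 4.3.3 (TMM, filterByExpr, quasi-likelihood test, Benjamini-Hochberg) and DESeq2 1.42.0 were run. The breeds were compared in each muscle, and muscle and interaction over 32 libraries. The alternatives were DESeq2, the exact test, RLE factors, library size alone, other filters, a replicate block and leaving out libraries. Leaving out PUL pigs 1 to 5, and Spearman's rho, were added after the data were examined. LD and S of a pig come from the same animal. Their deviations from the group means over 8279 genes had a median r of 0.145 (-0.572 to 0.79). It was above 0.1 in 9 of 16 pigs, and LD and S of the same pig were the best match in only 4. On simulated data the LD test recovered 81.6% and the S test 77.8% of genes changed 4-fold among 10844, and 34% and 35.1% of those changed 2-fold. There, all PUL libraries were changed alike. The rates therefore do not carry over to genes high in only some PUL pigs, as the members were. Libraries of 1 group always differed by more than counting noise (chi-square per degree of freedom at least 35.5). A listed gene is not reported here.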

Additional observations from a re-analysis of the deposited data

Results flagged for a closer look

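Within each breed and muscle (8 libraries), the gap of the highest or lowest library to its neighbour was compared with the range of the group by Dixon's criterion, for each of the 7 genes. Of 28 such groups, 18 were flagged, always by the highest library. A chance rate of about 1 in 20 would hold for normally distributed values and independent groups. CPM values were skewed, and most libraries of LD and S of PL had no count of TTR or APOC3. The genes also rise together and are not independent. The 18 flags therefore cannot be set against that rate, and are a description only. S of PUL pig 5 was flagged for 6 genes: ALB at 918 CPM, TTR at 60.1, TF at 146, HP at 145, APOC3 at 88.6 and FGB at 94.9. ASS1 was flagged in S of PUL in another library, pig 1, at 193 CPM. In LD of PUL, pig 2 was flagged for FGB at 32 CPM and for ASS1 at 53.9 CPM, and ALB, TTR, TF, HP and APOC3 had no library apart in that group.

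In LD of PL, pig 14 was flagged for 6 genes as well, at far lower levels: ALB at 4.27 CPM, TTR at 0.388, TF at 0.711, HP at 7.57, APOC3 at 0.323 and FGB at 0.841. In S of PL the flagged pigs differed by gene, with TTR at 0.373 CPM in pig 9, HP at 6.28 CPM in pig 18 and FGB at 0.743 CPM in pig 12, and they were not pig 14.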

How the results depend on the processing

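Between the breeds, the number of genes called depended most on the test. In LD, 0 genes were called by the quasi-likelihood test (772 with an unadjusted p under 0.05), 19 by DESeq2, 13 by the exact test, 4 without a filter and 1 without PUL pigs 1 to 5. In S, 0 were called (1252 with an unadjusted p under 0.05), 103 by DESeq2, 56 by the exact test, 4 without a filter, 1 with RLE factors and 1 without PUL pigs 1 to 5. Of the 3 members tested, in LD DESeq2 called 2 and the exact test 1, and in S each called 3. Between the muscles 16 genes were called, 1 with at least 10 counts in every library and 0 without PUL pigs 1 to 5. With 1 library or pig left out the calls ran from 0 to 1 in LD, from 0 to 1 in S and from 8 to 33 between the muscles.

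The replicate number pairs breeds by number only; with it as a replicate block, LD and S had 0 calls, and the log2 fold change of ALB was 4.45 in LD and 3.77 in S. Same-numbered libraries had a median r of 0.339 in LD and -0.0378 in S. With the pig paired, 13 genes differed between the muscles, and no call of a member changed.

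Without PUL pigs 1 to 5, the log2 fold change reversed for HP in LD (-0.24), ALB in S (-1.97), and ALB (-0.04) and ASS1 (-0.08) between the muscles. Without PUL pig 5, S over LD reversed for ALB (-0.47), TTR (-0.01), TF (-0.17), HP (-0.11), APOC3 (-0.07) and FGB (-0.32), and without PUL pig 1 for ASS1 (-0.04). The highest values with 1 pig left out were 1.65 for ALB, 1.76 for TTR, 1.43 for TF, 0.59 for HP, 1.81 for APOC3, 1.45 for FGB and 0.95 for ASS1. The cause was not tested. The median ratios to ALB moved by less than their SD with a minimum of 20 or 200 ALB counts and with either subtraction, but the SDs were wide. The ASS1 median over the 11 libraries moved from 0.621 to 0.27 after subtraction of the PL median, 0.282 after that of libraries without ALB and 0.403 with 200 ALB counts, and the HP median from 0.837 to 0.486, 0.522 and 0.447. Of the 15 genes nearest to ALB, 6 were shared with Spearman's rho, and 0 when 10 counts were required in every library, a filter none of them passed. At the lowest depth a count of 0 allows up to 0.353 CPM.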
